A study of Mus musculus with 8 samples.

Results

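The 36 genes described here make cholesterol and fatty acids or control their synthesis, and 34 of them were among the 14608 genes tested. They were chosen by name, as enzymes of the cholesterol and fatty acid pathways and as genes of the SREBP system that controls both. The other members, Ebp and Tm7sf2, were not analysed here. RNA-Seq had been performed on undifferentiated spermatogonia (A_undiff) sorted from testes of adult wild-type C57BL/6J mice, 6 to 8 weeks old. Regenerative A_undiff (BU, 4 libraries) came from mice given 10 mg/kg of the alkylating agent busulfan in a single dose and taken 10 days later (D10), and homoeostatic A_undiff (CTRL, 4 libraries) came from untreated mice of the same strain and age. All cells had been sorted as positive for E-Cadherin and CD49f (α6-integrin) and negative for c-KIT. The sorted population holds stem and progenitor cells together, so in these bulk libraries fewer cells of a type and less RNA per cell cannot be told apart.

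Cholesterol is built in the cytosol and endoplasmic reticulum from acetyl-CoA. The mevalonate steps give the isoprenoid farnesyl diphosphate, which also feeds protein prenylation, dolichol and ubiquinone, and the squalene and post-squalene steps turn it into sterol. Transcription of most of these enzymes is driven by SREBP2 (encoded by Srebf2), whereas SREBP1 (encoded by Srebf1) acts more on fatty acid enzymes. SCAP carries both factors to the Golgi for cleavage when membrane sterol is low, and INSIG proteins hold them in the endoplasmic reticulum when it is high. In the testis, sterols are best known as the substrate of androgens in Leydig cells, and germ cell membranes are rich in polyunsaturated fatty acids made by the FADS and ELOVL enzymes.

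Libraries held between 17181963 and 24243985 counts in BU, against 18152779 to 23875108 in CTRL. All 34 members passed the count filter, which removed 0 genes, and the lowest count of a member in any library was 36. The 14 markers of undifferentiated spermatogonia were all detected and summed to between 2080 and 2321 CPM (counts scaled to library size) in BU, against 2407 to 2675 CPM in CTRL. They moved in both directions: 6 fell, among them Lin28a, Foxo1 and Zbtb16 (log2 fold changes of -1.24, -0.77 and -0.79, all DEGs), and 3 rose, Gfra1, Etv5 and Itga6 (0.54, 0.53 and 0.26). The 8 markers of differentiating spermatogonia summed to between 519 and 551 CPM in BU, against 277 to 331 CPM in CTRL, with 7 higher and 1 lower, and Kit was higher despite the sort against c-KIT. The immune cell list had 5 of its 14 genes in the table. All 5 (Ptprc, Cd74, H2-Aa, Mrc1 and Cd68) were higher, and they summed to between 26.8 and 39.8 CPM in BU, against 11.6 to 19.2 CPM in CTRL. Ptprc, Cd74 and H2-Aa had only 0.67, 0.86 and 0.14 CPM in CTRL 1, and the groups of Ptprc and H2-Aa overlapped. Every gene of the table reached at least 1 CPM in 4 libraries, which the BU libraries alone met for these genes. That all 5 were higher is therefore not independent of how low markers entered the table. Of 9 Leydig cell markers only Star was in the table, at 7.28 CPM in BU and 7.53 CPM in CTRL. Of the 6 Sertoli cell markers in the table Sox9 and Cldn11 were DEGs higher in BU, and the sum of the list was 44.7 to 60.9 CPM in BU, against 41.2 to 52.8 CPM in CTRL. The 5 endothelial markers summed to between 29.5 and 38.2 CPM in BU, against 23.5 to 25.2 CPM in CTRL, with Kdr higher (log2 fold change 1.47). The 3 peritubular and stromal markers summed to between 33.7 and 36.9975 CPM in BU, against 54.4 to 58.8 CPM in CTRL, with Col1a1 lower (-1.39) and Pdgfra higher (0.91). The summed level of the 12 spermatocyte and spermatid markers overlapped, at 466 to 560 CPM in BU and 437 to 545 CPM in CTRL. The part of such cells in the results below was not tested. BU 3 lay farthest from its group mean in 11 of the 34 members, BU 5 in 10, BU 4 in 7 and BU 2 in 6.

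Most genes of cholesterol synthesis had lower estimates in regenerative A_undiff, Srebf2 was lower as well, and the desaturase genes Scd1 and Fads1 were higher. Differentially expressed genes (DEGs) were those with a fold change over 1.5 and, in limma-voom, a p under 0.05 after Benjamini-Hochberg adjustment over the whole table, and 13.3% of all genes were DEGs. Mvd, Idi1 and Dhcr7 were DEGs lower in BU, which is 3 of 34 members beside 6.54% of all genes. Scd1 was the 1 DEG higher in BU, beside 6.8% of all genes. At an adjusted p under 0.05 and any fold, which is what "rose" and "fell" mean below, 8 members fell, beside 16.9% of all genes, and 3 rose, beside 15.2%. All BU libraries lay below all CTRL libraries for 9 members (15.9% of all genes) and above them for 2 members (14.5% of all genes). The median log2 fold change, given throughout as BU minus CTRL, was -0.09 over the 34 members and -0.01 over all genes. For the 16 members of the cholesterol steps it was -0.19, with 14 negative and 2 positive values, whereas for the 12 members of the fatty acid steps it was -0.07, with 7 negative and 5 positive.

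**Figure D1:**
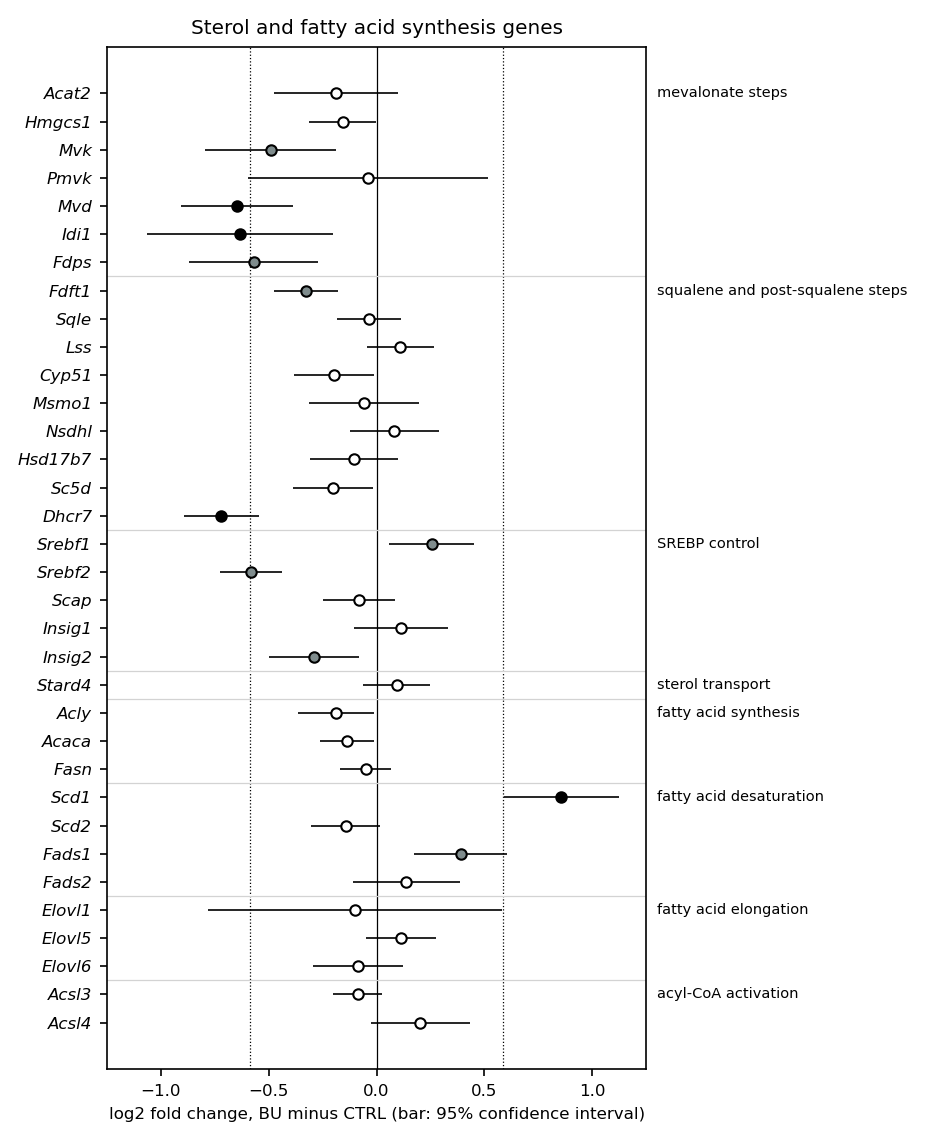
Log2 fold change (BU minus CTRL) of each of the 34 members, grouped by step, with its 95% confidence interval; dotted lines mark a 1.5-fold change. Black points are DEGs, grey points passed an adjusted p of 0.05 at a smaller fold and white points did not pass. All 7 mevalonate genes lie left of 0, and Scd1 is the only black point on the right.

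Sequences upstream of these genes are shown because SREBP, NF-Y and SP1 are known to act together at promoters of this pathway. RefSeq windows of build GRCm38.p6, from 250 bases before to 50 bases after a start site, were matched for 27 of the 34 members. Sqle, Fdft1, Fdps, Stard4, Scd1, Scd2 and Fads1 had no window. The windows below belong to the 3 DEGs that fell, to Srebf2 and to Hmgcs1, each read 5′ to 3′ on the strand of the gene. Capitals mark matches to the SREBP site core TCACNCCAC, the NF-Y box CCAAT and the SP1 box GGGCGG on either strand, so that ATTGG is an NF-Y box and CCGCCC an SP1 box on the other strand.
Hmgcs1, chr13:119690101-119690400, plus strand: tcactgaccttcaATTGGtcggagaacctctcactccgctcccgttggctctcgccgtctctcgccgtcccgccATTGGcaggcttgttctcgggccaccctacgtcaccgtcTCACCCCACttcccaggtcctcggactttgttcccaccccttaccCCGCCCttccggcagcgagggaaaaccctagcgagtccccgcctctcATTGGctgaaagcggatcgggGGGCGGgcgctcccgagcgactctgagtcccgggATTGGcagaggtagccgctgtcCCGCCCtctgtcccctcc
Mvd, chr8:122443373-122443672, minus strand: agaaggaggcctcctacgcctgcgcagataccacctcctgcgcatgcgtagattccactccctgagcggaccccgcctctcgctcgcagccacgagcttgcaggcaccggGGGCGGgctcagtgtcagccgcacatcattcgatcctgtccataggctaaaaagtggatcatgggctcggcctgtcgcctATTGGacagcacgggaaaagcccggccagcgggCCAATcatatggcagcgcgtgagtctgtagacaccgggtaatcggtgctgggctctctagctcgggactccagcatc
Idi1, chr13:8885356-8885655, plus strand: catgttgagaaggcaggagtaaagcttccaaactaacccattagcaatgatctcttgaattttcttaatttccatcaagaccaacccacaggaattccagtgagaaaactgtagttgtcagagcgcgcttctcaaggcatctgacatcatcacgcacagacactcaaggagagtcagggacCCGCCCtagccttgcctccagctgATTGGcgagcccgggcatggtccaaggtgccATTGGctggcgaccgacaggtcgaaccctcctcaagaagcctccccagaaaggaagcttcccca
Dhcr7, chr7:143829964-143830263, plus strand: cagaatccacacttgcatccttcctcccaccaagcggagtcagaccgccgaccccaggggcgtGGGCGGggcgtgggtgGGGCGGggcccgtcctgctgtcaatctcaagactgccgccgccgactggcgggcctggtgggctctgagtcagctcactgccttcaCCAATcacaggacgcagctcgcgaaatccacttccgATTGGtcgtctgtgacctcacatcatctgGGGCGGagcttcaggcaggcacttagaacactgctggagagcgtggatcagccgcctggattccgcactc
Srebf2, chr15:82147019-82147318, plus strand: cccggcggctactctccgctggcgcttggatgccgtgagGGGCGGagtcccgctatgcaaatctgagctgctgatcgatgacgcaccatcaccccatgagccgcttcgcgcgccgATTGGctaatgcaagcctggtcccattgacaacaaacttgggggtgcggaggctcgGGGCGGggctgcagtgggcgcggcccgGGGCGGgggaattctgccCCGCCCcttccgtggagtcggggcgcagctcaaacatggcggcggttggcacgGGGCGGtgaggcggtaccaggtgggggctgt
The Hmgcs1 window holds the only SREBP core match among the 27 matched members, with 4 NF-Y and 3 SP1 boxes around it. Those of Mvd and Idi1 hold 2 NF-Y boxes and 1 SP1 box each. Dhcr7 has 3 listed start sites. The printed window, chosen after the matches were seen, has 2 NF-Y and 3 SP1 boxes, whereas the others have 0 NF-Y boxes and 1 SP1 box or 1 E-box. The Srebf2 window has 1 NF-Y and 5 SP1 boxes. Counted by gene, over all windows of a gene, CCAAT was found for 21 of the 27 matched members (77.8%), against 43.7% of the 10050 matched genes of the table, GGGCGG for 22 members (81.5%, against 68.4%), the E-box CACGTG for 6 (22.2%, against 12.1%) and the SREBP core for 1 (3.70%, against 1.40%). Counted by window, CCAAT was in 61.1% of the 36 member windows, against 37.4% of all 32851 windows. GGGCGG was in 75.0% (against 35.7%), the E-box in 19.4% (against 7.15%) and the SREBP core in 2.78% (against 1.24%). The 32851 windows were not limited to genes of the table, unlike the comparison by gene. The motifs do not overlap one another in the 5 printed windows.

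All 7 mevalonate genes had lower estimates in BU, and 4 of them fell, beside 16.9% of all genes. Mvd, mevalonate diphosphate decarboxylase (chr8:122433601-122443422, GRCm38, as are all coordinates here), had 9.04, 9.05, 9.80 and 9.48 CPM in BU, against 12.9, 16.3, 16.3 and 13.4 CPM in CTRL. Its highest BU library lay well below its lowest CTRL library, and the log2 fold change was -0.65 (SE 0.12, limma adjusted p = 0.000641). Idi1, the isomerase that makes dimethylallyl diphosphate (chr13:8885501-8892451), had 4.95, 5.19, 3.82 and 3.71 CPM in BU, against 5.89, 8.29, 5.31 and 8.79 CPM in CTRL. The gap between the groups was narrow and CTRL libraries were widely spread, with a log2 fold change of -0.63 (SE 0.20, limma adjusted p = 0.0249). The Idi1 call was lost when CTRL 2, CTRL 4, BU 4 or BU 5 was left out, with log2 fold changes from -0.56 to -0.50 and adjusted p from 0.0627 to 0.0881. Fdps, which makes farnesyl diphosphate, had 5.76, 6.30, 8.04 and 6.38 CPM in BU, against 9.27, 11.1, 9.76 and 9.26 CPM in CTRL. It fell by 0.57 on the log2 scale (SE 0.14, limma adjusted p = 0.00527), just short of 1.5-fold. Mvk, mevalonate kinase, had 7.197, 7.54, 5.93 and 5.95 CPM in BU, against 10.3, 10.0, 9.55 and 8.11 CPM in CTRL. It too separated the groups, with a log2 fold change of -0.49 (SE 0.14, limma adjusted p = 0.0148).

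Acat2, Hmgcs1 and Pmvk did not pass the test. Acat2, the thiolase that joins 2 acetyl-CoA units, had 14.9, 17.6, 10.5 and 12.6 CPM in BU, against 14.5, 15.8, 16.2 and 16.6 CPM in CTRL. BU 3 was above every CTRL library and BU 4 far below, and the log2 fold change was -0.19 with a 95% interval from -0.48 to 0.10. Hmgcs1, HMG-CoA synthase, had 49.1, 54.5, 47.6 and 53.8 CPM in BU, against 55.2, 53.6, 58.8 and 60.9 CPM in CTRL. Its groups overlapped in BU 3, BU 5 and CTRL 2, and its log2 fold change was -0.16 (interval -0.31 to -0.0037, limma adjusted p = 0.111). Pmvk, phosphomevalonate kinase, was low at 2.27 ± 0.522 CPM in BU and 2.32 ± 0.599 CPM in CTRL (SD, n = 4 each), and its interval from -0.59 to 0.52 left changes of up to about 1.5-fold either way undetectable at this depth. Summed over the 7 genes, BU libraries had 87.7 to 102 CPM, against 111 to 119 CPM in CTRL.

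Reads of some of these genes could be shared with copies elsewhere. Fdps has 4 processed pseudogenes of at least 96.1% identity, and both that the table lists were lower in BU as well (Gm3571 with a log2 fold change of -0.55 and Gm5873 with -0.63). Idi1 matched Gm13502 without mismatch over 684 bases, and Gm13502 had 6.55 ± 1.46 CPM in BU and 5.63 ± 0.452 CPM in CTRL (log2 fold change 0.23, limma adjusted p = 0.332). Acat2 is 97.7% identical to Acat3 over 1477 bases. The values of Fdps, Idi1 and Acat2 are uncertain to that degree, and no copy of this kind was found for Mvd, Mvk or Dhcr7.

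**Figure D2:**
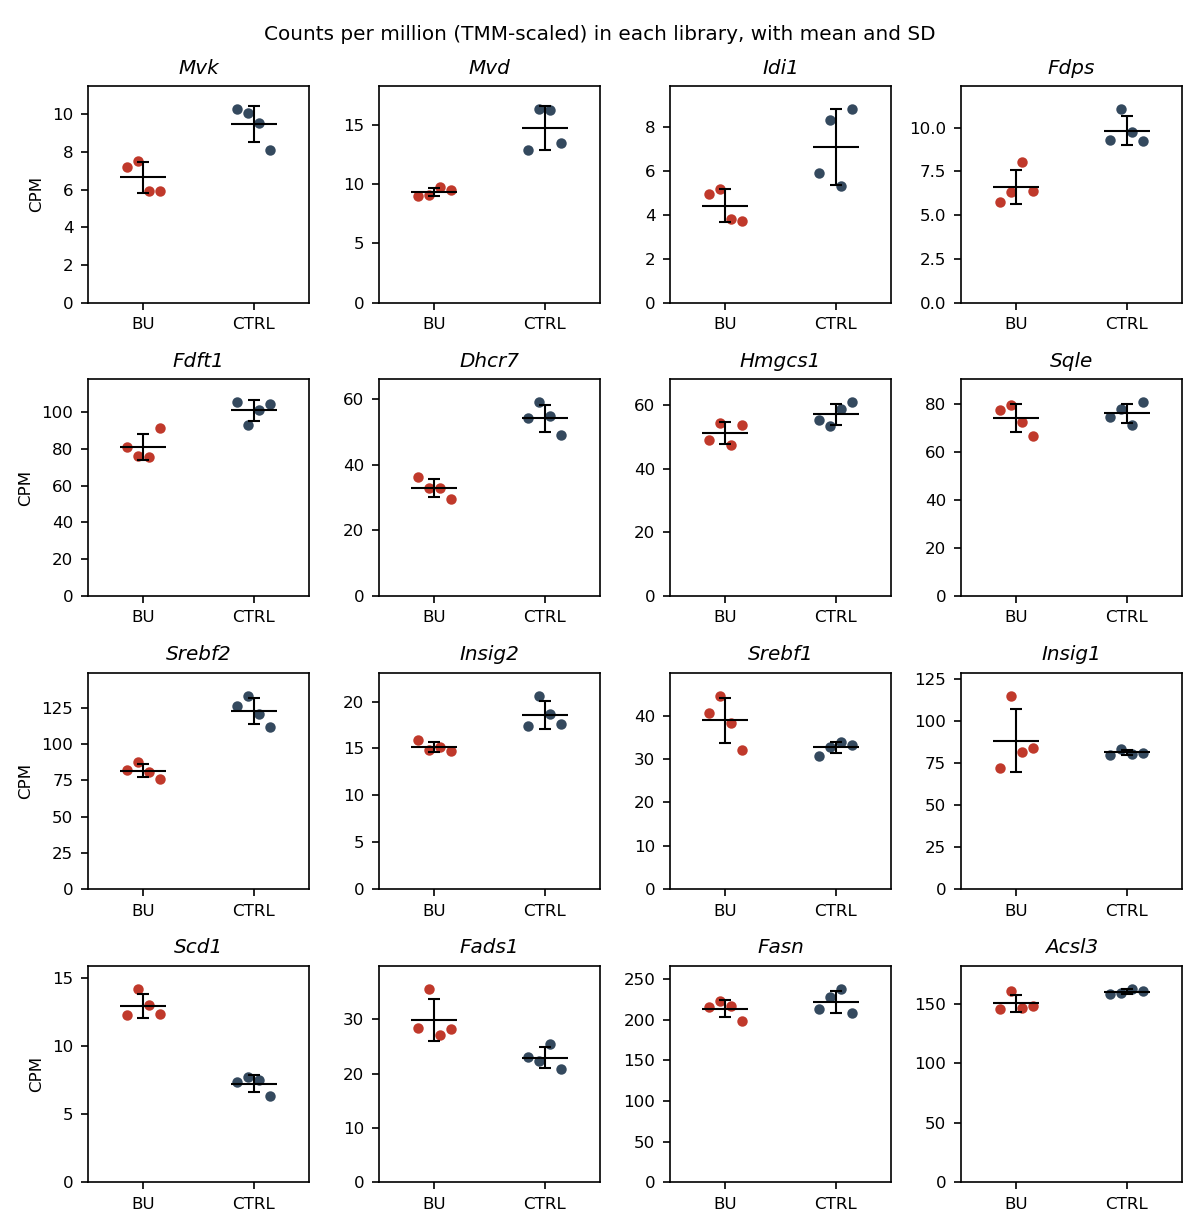
TMM-scaled CPM in each library for 16 members, BU left of CTRL, with the mean (long bar) and SD; each axis starts at 0. Mvd, Dhcr7 and Srebf2 are lower and Scd1 is higher in every BU library, whereas Sqle, Insig1 and Fasn overlap and Insig1 has 1 high library, BU 3.

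Past farnesyl diphosphate, the entry and the exit of the sterol branch were lower and most steps between did not pass. Fdft1, squalene synthase, had 81.2, 76.4, 75.5 and 91.4 CPM in BU, against 105, 92.9, 101 and 105 CPM in CTRL. The groups came close at BU 5 and CTRL 2 without overlap, and the gene fell by 0.33 on the log2 scale (SE 0.07, limma adjusted p = 0.00169). Of its exonic bases, 18.3% overlap Ctsb on the other strand, a gene that rose by 0.28, and it has a pseudogene, Gm6781, that was lower with a log2 fold change of -0.57. Dhcr7, the reductase that ends the pathway by making cholesterol (chr7:143823145-143848410), had 36.2, 32.9, 32.8 and 29.5 CPM in BU, against 54.2, 59.1, 54.9 and 49.0 CPM in CTRL. This was the largest fall among the members, 1.65-fold, with a log2 fold change of -0.72 (SE 0.08, limma adjusted p = 4.55e-06) and a wide gap between the groups.

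The 7 other genes of this branch had overlapping groups. Sqle, the rate-limiting squalene epoxidase, averaged 74.0 ± 5.69 CPM in BU and 75.9 ± 4.11 CPM in CTRL, and its interval ran from -0.18 to 0.11. Lss, which closes the sterol rings, had a log2 fold change of 0.11 (interval -0.05 to 0.26). Cyp51, the lanosterol demethylase, averaged 27.7 ± 0.877 CPM in BU and 32.0 ± 3.11 CPM in CTRL (log2 fold change -0.20, limma adjusted p = 0.0944). Sc5d, a desaturase acting shortly before Dhcr7, had the same estimate of -0.20 (limma adjusted p = 0.0895). Msmo1 and Nsdhl, which remove the methyl groups of lanosterol, had estimates of -0.06 and 0.08, and Hsd17b7, which acts with them, had -0.10. For all 7 the interval stayed within 1.5-fold in both directions. The summed level of the 9 squalene and post-squalene genes was 359 to 375 CPM in BU, against 413 to 421 CPM in CTRL, with Fdft1 and Dhcr7 giving most of that gap.

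Among the SREBP control genes, Srebf2 fell most. It had 82.1, 87.3, 80.5 and 76.2 CPM in BU, against 126, 133, 120 and 112 CPM in CTRL (chr15:82147266-82205376). All BU libraries were below all CTRL libraries, and the log2 fold change was -0.58 (SE 0.07, limma adjusted p = 5.04e-06). The fold was 1.497, just under the DEG threshold of 1.5, and Srebf2 passed it in edgeR (log2 fold change -0.59), with library totals (-0.61), with quality weights (-0.59) and without CTRL 3, CTRL 4 or BU 3. Srebf1 had 40.6, 44.6, 38.4 and 32.0 CPM in BU, against 30.8, 32.7, 34.0 and 33.2 CPM in CTRL. BU 5 lay within the CTRL range, and the rise of 0.25 (SE 0.09, limma adjusted p = 0.0465) was lost in 7 of the 8 fits that left out a library (adjusted p up to 0.153, without BU 3). Insig2, which retains SCAP, had 15.9, 14.8, 15.1 and 14.7 CPM in BU, against 17.4, 20.6, 18.6 and 17.6 CPM in CTRL. It fell by 0.29 (SE 0.10, limma adjusted p = 0.0319), without overlap, and stayed under an adjusted p of 0.05 in 3 of the 8 fits that left out a library.

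Insig1, itself a well-known SREBP target, had 72.0, 115, 81.8 and 84.3 CPM in BU, against 80.1, 83.6, 80.3 and 81.2 CPM in CTRL. BU 3 stood far above the rest and BU 2 below all of them, so that the log2 fold change of 0.11 (interval -0.10 to 0.33) became -0.04 without BU 3. Scap had 55.5, 67.3, 59.3 and 57.5 CPM in BU, against 71.6, 62.7, 61.1 and 59.9 CPM in CTRL. Its groups overlapped, with a log2 fold change of -0.08 (interval -0.25 to 0.08). Srebf2 and Insig2, which fell, thus stood beside Scap and Insig1, which did not pass, and Srebf1, which rose weakly. Stard4, a carrier that moves sterol between membranes, averaged 46.8 ± 2.96 CPM in BU and 43.8 ± 2.22 CPM in CTRL and did not pass (log2 fold change 0.09, interval -0.06 to 0.25).

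Fatty acid synthesis proper did not pass the test at any step in limma, edgeR or DESeq2, although 2 of its 3 genes had an unadjusted p under 0.05. Acly, which supplies cytosolic acetyl-CoA, had 112, 137, 105 and 106 CPM in BU, against 149, 127, 128 and 122 CPM in CTRL. BU 3 was again the highest BU library and lay within the CTRL range, with a log2 fold change of -0.19 (limma adjusted p = 0.098). Acaca, the rate-limiting carboxylase, averaged 81.5 ± 1.72 CPM in BU and 89.5 ± 3.63 CPM in CTRL. All its BU libraries were below all CTRL libraries, yet the difference of -0.14 did not pass (limma adjusted p = 0.0894). Fasn, fatty acid synthase, averaged 213 ± 10.4 CPM in BU and 222 ± 13.3 CPM in CTRL, with an interval from -0.17 to 0.07. Acaca shares 99.2% identity over 6118 bases with the pseudogene Gm5182, so its value carries that uncertainty.

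Of the 4 desaturases 2 rose, Scd1 and Fads1, beside 15.2% of all genes. Scd1, stearoyl-CoA desaturase, which makes monounsaturated fatty acids (chr19:44394451-44407709), had 12.3, 14.2, 13.0 and 12.3 CPM in BU, against 7.37, 7.76, 7.54 and 6.32 CPM in CTRL. The 4 BU libraries were tightly grouped and all far above CTRL, 1.81-fold higher (log2 fold change 0.86, SE 0.13, limma adjusted p = 5.68e-05). Fads1, a front-end desaturase of polyunsaturated fatty acids, had 28.4, 35.6, 27.2 and 28.2 CPM in BU, against 23.1, 22.3, 25.4 and 20.8 CPM in CTRL. BU 3 was the highest, the other BU libraries still lay above all CTRL libraries, and the rise of 0.39 (SE 0.10, limma adjusted p = 0.00707) was 0.29 without BU 3. Fads2, which acts before Fads1 on the same fatty acids, averaged 23.7 ± 3.73 CPM in BU and 21.9 ± 2.58 CPM in CTRL and did not pass (interval -0.11 to 0.39). Scd2, the more abundant stearoyl-CoA desaturase gene here, averaged 56.6 ± 2.96 CPM in BU and 62.8 ± 5.55 CPM in CTRL, with an estimate of -0.14 against 0.86 for Scd1. The Scd1 and Scd2 transcripts are 95.5% identical over 623 bases.

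The elongases and acyl-CoA synthetases overlapped between groups. Elovl5 and Elovl6, which lengthen polyunsaturated and saturated fatty acids, had log2 fold changes of 0.11 (interval -0.05 to 0.27) and -0.08 (interval -0.29 to 0.12). Elovl1, for very long chains, had only 5.53, 1.64, 2.32 and 2.49 CPM in BU, against 1.71, 3.35, 3.04 and 3.29 CPM in CTRL. BU 2 alone was high, and the sign of the estimate differed between tools (-0.10 in limma, 0.06 in edgeR and 0.07 in DESeq2). Acsl3 averaged 150 ± 7.21 CPM in BU and 160 ± 2.06 CPM in CTRL (interval -0.20 to 0.03). Acsl4, which prefers arachidonic acid, had 23.8, 31.1, 23.5 and 25.3 CPM in BU, against 25.2, 20.9, 20.3 and 24.4 CPM in CTRL. Only BU 3 and BU 5 lay above all CTRL libraries, and the log2 fold change was 0.20 (interval -0.03 to 0.43).

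**Figure D3:**
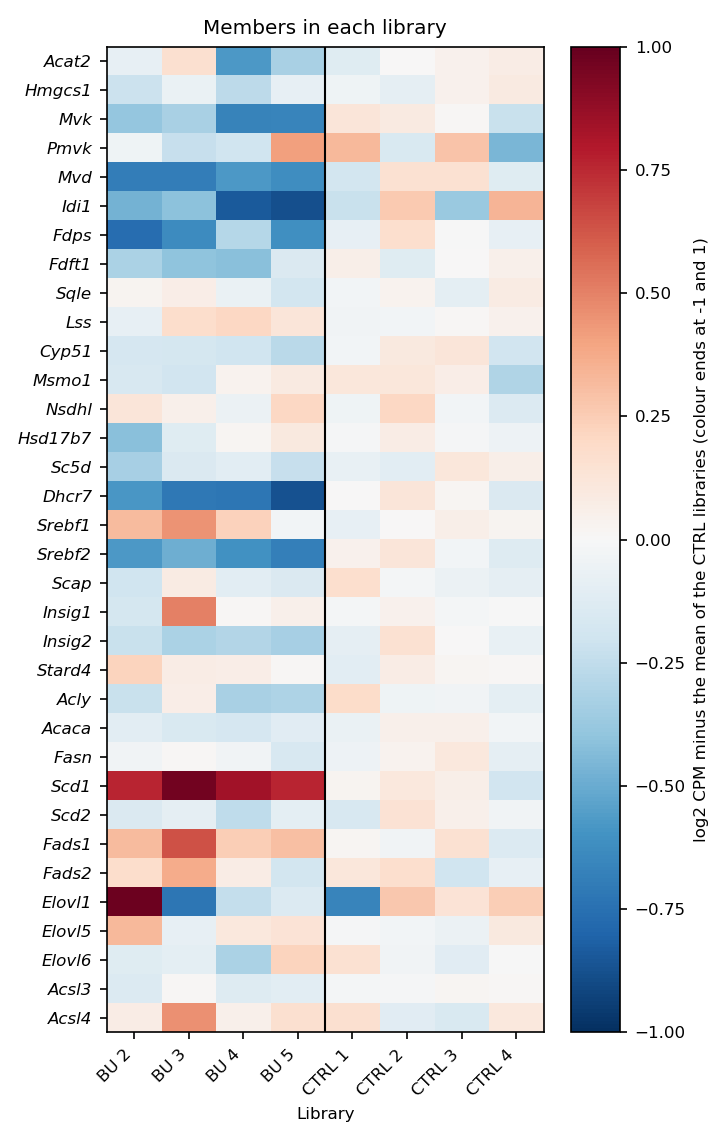
Log2 CPM of each member in each library minus the mean of the CTRL libraries, BU left of the line and CTRL right of it; blue is lower and red higher, with colours ending at -1 and 1. Mvd, Idi1, Fdps, Dhcr7 and Srebf2 are blue in all 4 BU libraries, Scd1 and Fads1 are red in all 4, and Elovl1 differs between libraries within each group.

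Of the 16 cholesterol members 6 fell, beside 16.9% of all genes. The median of the 16 was below CTRL in each of the 4 BU libraries, although Lss and Nsdhl were each above the CTRL mean in 3 of them. Relative to the mean of the CTRL libraries, the median log2 CPM of the 16 cholesterol members was -0.27 in BU 2, -0.18 in BU 3, -0.23 in BU 4 and -0.21 in BU 5, and it lay between -0.07 and 0.08 in the CTRL libraries. The same median over the 12 fatty acid members was 0.02, 0.01, -0.08 and -0.10 in the BU libraries and between -0.03 and 0.03 in CTRL. Summed CPM of the 16 cholesterol members was 452, 473, 456 and 470 in BU, against 528, 538, 538 and 532 in CTRL, so that the BU mean was 86.7% of the CTRL mean. For the 12 fatty acid members the sums were 855, 892, 816 and 825 CPM in BU, against 874, 879, 882 and 850 CPM in CTRL, which overlapped. With BU 3 and BU 5 left out together, 1 member was a DEG higher and 3 were DEGs lower, as many as with all libraries, although Srebf2 then passed the fold threshold and Idi1 did not pass (adjusted p = 0.0671).

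Levels of different genes were compared per length, as RPKM (CPM divided by length in kilobases) on the deposited gene lengths. Acsl3 was the most abundant member, at 34.5 ± 1.65 RPKM in BU and 36.7 ± 0.472 RPKM in CTRL, and its CTRL libraries lay above those of every other member. Insig1, Elovl5, Acly, Srebf2 and Fdft1 followed in CTRL, from 26.3 down to 23.9 RPKM, and neighbours in that run overlapped. In BU, Srebf2 was at 16.3 RPKM and stood at rank 7 of 34, against 24.6 RPKM and rank 5 in CTRL. Dhcr7 stood at rank 20 in BU (5.65 RPKM), against rank 12 in CTRL (9.33 RPKM), and Mvd at rank 24 in BU (5.03 RPKM), against rank 14 in CTRL (7.92 RPKM). Scd1 was among the least abundant members in both groups, at 2.68 ± 0.183 RPKM in BU and 1.498 ± 0.132 RPKM in CTRL, below Scd2 at 10.4 ± 0.543 RPKM in BU and 11.5 ± 1.02 RPKM in CTRL. The mevalonate kinases and their neighbours Fdps and Idi1 were also low, with Mvk at 2.49 RPKM in BU and 3.55 RPKM in CTRL, Pmvk at 1.33 RPKM in BU and 1.35 RPKM in CTRL, and Idi1 at 1.26 RPKM in BU and 2.02 RPKM in CTRL. The levels of Fdps and Idi1 are uncertain, since their reads could be shared with copies. In CTRL, Gm3571 had 10.1 CPM beside 9.84 CPM for Fdps, and Gm13502 had 5.63 CPM beside 7.07 CPM for Idi1. Fdps was also divided by a deposited length of 4208 bases, whereas its longest protein-coding transcript has 1382 bases.

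Of 9 further genes of sterol and isoprenoid synthesis in the table, 1 was a DEG, beside 13.3% of all genes, 2 fell and 0 rose in limma, edgeR and DESeq2 alike (median -0.09), and at an unadjusted p under 0.05 limma gave 3 lower and 0 higher. Ggps1, which makes the isoprenoid for prenylation, fell by 0.33 (limma adjusted p = 0.00227). Ggps1 and the genes named below that are no DEGs were picked after their values were seen. Over all genes, 13.3% were DEGs, 15.2% rose and 16.9% fell, beside this list and each list below. Of 9 genes of SREBP processing 0 were DEGs in limma, edgeR or DESeq2 (3 had an unadjusted p under 0.05), and at any fold 1 rose and 2 fell (Mbtps2, which makes the second SREBP cleavage, by 0.34, and Erlin1 by 0.18).

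Sterol uptake, storage and efflux genes had 2 DEGs that were higher and 1 that was lower among 15 in the table, beside 6.8% and 6.54% of all genes, with 5 that rose and 2 that fell at any fold and a median of 0.29. Vldlr, a lipoprotein receptor, had 7.89, 3.99, 5.26 and 6.14 CPM in BU, against 1.28, 3.99, 2.44 and 2.13 CPM in CTRL. BU 3 and CTRL 2 had nearly the same value, and the log2 fold change was 1.27 (SE 0.29, limma adjusted p = 0.00268). Lrp1, a large receptor for lipoproteins and proteases, had 112, 120, 104 and 100 CPM in BU, against 67.4, 84.1, 66.4 and 70.2 CPM in CTRL (log2 fold change 0.61, SE 0.08, limma adjusted p = 1.64e-05). Abcg1, a sterol exporter, had 17.3, 16.4, 16.2 and 17.1 CPM in BU, against 26.9, 27.2, 28.1 and 29.7 CPM in CTRL (log2 fold change -0.74, SE 0.09, limma adjusted p = 6.06e-06). The exporter Abca1 fell by 0.45 and the HDL receptor Scarb1 rose by 0.55. Receptors such as Lrp1 and Scarb1 are also expressed by macrophages. The 5 immune markers above were higher in BU, with the limits given there, whereas Abca1 and Abcg1 fell. The part of immune cells in any of these values was not tested.

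Further fatty acid genes pointed in no common direction. Of 24 other synthesis genes in the table, 2 were DEGs higher and 1 lower, beside the same shares of all genes (at any fold 4 rose and 2 fell, median 0.06). Scd3, a further stearoyl-CoA desaturase gene, had 4.89, 3.91, 5.31 and 3.28 CPM in BU, against 7.23, 8.24, 5.91 and 9.004 CPM in CTRL. It fell by 0.80 (SE 0.19, limma adjusted p = 0.0039) while Scd1 rose, and the groups did not overlap. Acsl6 had 3.05, 2.31, 3.15 and 2.61 CPM in BU, against 1.62, 1.33, 1.03 and 1.54 CPM in CTRL (log2 fold change 1.00, SE 0.26, limma adjusted p = 0.00665). Fads6, a desaturase-like gene, had 4.26, 4.91, 5.26 and 4.92 CPM in BU, against 2.85, 3.35, 2.95 and 3.41 CPM in CTRL (log2 fold change 0.63, SE 0.18, limma adjusted p = 0.0132). Of 17 fatty acid oxidation genes 0 were DEGs in limma, edgeR or DESeq2, while at any fold 4 rose and 4 fell (5 higher and 4 lower at an unadjusted p under 0.05). Those that rose included Cpt1a, which admits fatty acids to mitochondria, by 0.55, Decr1 by 0.54 and Acadl by 0.49. The mitochondrial enzymes Acaa2, Acadm, Hadha and Hadhb fell by 0.56, 0.47, 0.32 and 0.26.

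**Figure D4:**
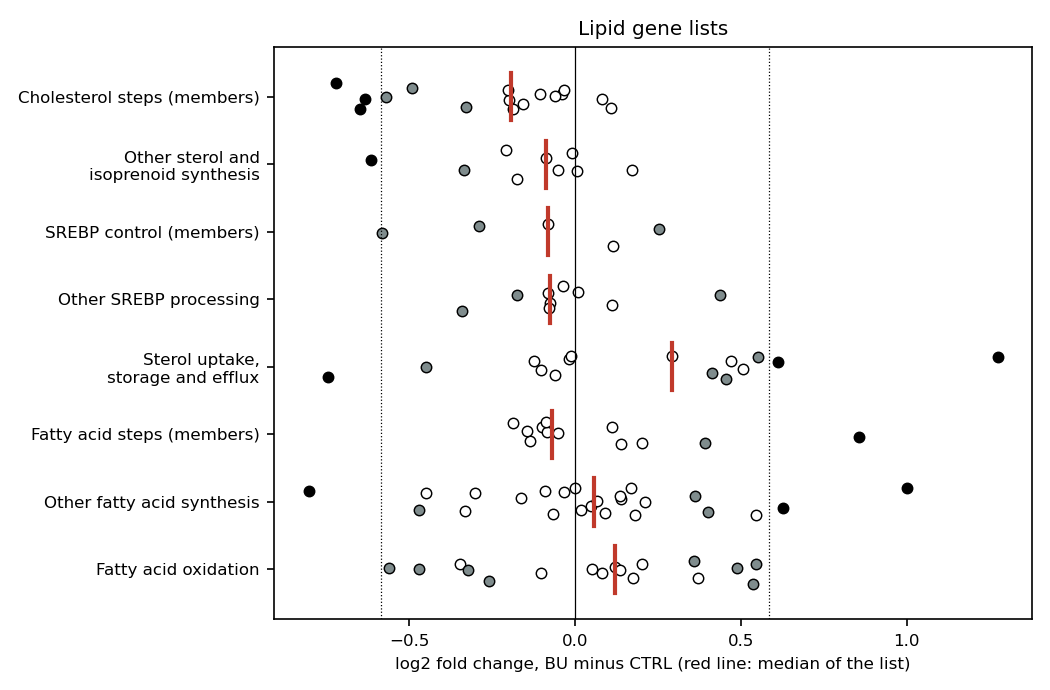
Log2 fold change (BU minus CTRL) of every gene of 8 lipid gene lists; the red line is the median of the list, and points are filled as in the plot of the members by step. The median is -0.19 for the cholesterol members and 0.29 for sterol uptake, storage and efflux, and the lists of fatty acid genes lie on both sides of 0.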

How the data were processed

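RNA-Seq libraries had been made from sorted A_undiff by SPIA amplification and read as 100 bp paired ends. Build GRCm38 and the tools featureCounts, edgeR and limma are named in the submitters' processing notes. The strand setting was not given in the sources used here, so reads of overlapping genes on opposite strands cannot be told apart. The authors deposited raw counts per gene for 8 libraries, without normalisation, and these were the input. Every one of the 14608 genes reached a CPM of at least 1 in 4 libraries. The deposited columns of log2 fold change, average expression and p-values hold the authors' own comparison and were not used, nor were 8 columns of CPM. CTRL columns name their replicate, whereas BU columns are numbered 2 to 5 and were assigned to the group. Each group comprised 4 mice by the published methods, and which mouse gave which library is not in the labels.

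The fit was limma-voom (limma 3.58.1, edgeR 4.0.16, R 4.3.3) over the whole table, after filterByExpr, with TMM factors and BU against CTRL as its only term. CPM are TMM-scaled, and RPKM divide them by the deposited gene length. DESeq2 1.42.0 and the quasi-likelihood test of edgeR were run as alternatives, with other scalings, filters, weights and thresholds, and with libraries left out. The code was tested on simulated data. Overlaps and copies (at least 95% identity over 200 bases, BLAST 2.17.0) came from GENCODE M21 and promoters from RefSeq; GC and length were not corrected for. The members, lists and motifs were chosen with earlier results of these data known. Values per library are given for DEGs, for members that passed without overlap, for the SREBP control genes and for the outermost enzyme steps. A few genes of the wider lists are counted but not reported here singly.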

Additional observations from a re-analysis of the deposited data

Results flagged for a closer look

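A pair of values stood apart from their own group among the 68 groups of 4 libraries tested (34 members in BU and in CTRL) by Dixon's test, the gap to the nearest library taken over the range of the group. Chance alone gives about 1 in 20 groups. Fads1 was at 35.6 CPM in BU 3, against 28.4 CPM in the next BU library, a ratio of 0.849. Msmo1 was at 12.2 CPM in CTRL 4, against 15.8 CPM in the next CTRL library, a ratio of 0.872.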

How the results depend on the processing

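Across the settings tried, the estimates of Mvd, Dhcr7 and Scd1 kept their direction and stayed DEGs, except under the thresholds below. RLE factors and removal of mitochondrial genes changed the call of no member. Leaving out the count filter, which removed 0 genes, only repeated the reported fit and tested nothing. The count of members called higher, 1 in the fit as reported, was 0 with limma's treat test against 1.5-fold, 0 at a fold over 2 and 3 with no fold threshold, and 1 in each fit that left out a library. The count called lower, 3 as reported, was 5 with library totals (Fdps and Srebf2 added), 0 with treat, 0 at a fold over 2, 8 with no fold threshold, and 2 to 4 with a library left out. Members that fell at any fold numbered 5 at a mean CPM of at least 10, which leaves 29 members, and 6 to 8 with a library left out (8 as reported), and those that rose 2 to 3.

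The sign turned for genes with estimates near 0. With a library left out, log2 fold changes ranged from -0.21 to 0.074 for Pmvk, -0.073 to 0.012 for Sqle, -0.037 to 0.20 for Insig1 and -0.42 to 0.19 for Elovl1. Elovl1 was at 0.056 in edgeR, 0.070 in DESeq2 and 0.34 without BU 3 and BU 5, where Insig1 was at -0.080. Without BU 3 and BU 5, Scd3 and Fads6 lost their calls (adjusted p = 0.0785 and 0.0612) and Fads1 and Fdps no longer passed (adjusted p = 0.0615 and 0.0507). Lrp1 fell under 1.5-fold without CTRL 3 (0.57) or BU 3 (0.56). The cause was not tested. Alternative scalings moved the median of all genes by less than 0.1 on the log2 scale. At 4 libraries a group the median SE of a member was 0.10. For the low genes Pmvk and Elovl1 the SE was 0.26 and 0.32, so small folds in such genes were not detectable. RPKM on RefSeq transcript lengths was not run. No paired analysis was possible because the count columns number the BU libraries 2 to 5, whereas the labels number them 1 to 4. Neither the labels nor the published methods describe a pairing of BU with CTRL mice, so equal replicate numbers need not mark pairs.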
